A study of Tupaia belangeri with 6 samples.

Results

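TSHZ2-set nuclei are nuclei with genes of pyramidal neurons from the hippocampus of the tree shrew (TS, Tupaia belangeri), a small mammal related to primates. A nucleus belonged to the set if it had at least 200 genes, at least 4 unique molecular identifiers (UMIs, which count captured RNA molecules) of TSHZ2, COL8A1 and COL21A1 together, and at least 1 UMI of NEUROD6, TBR1 and MPPED1, genes of pyramidal neurons. It also had to lack any UMI of FIBCD1 and of PROX1, GAD1, PDGFRA, MOG, AQP4 and PTPRC, which mark other neurons, glia and immune cells. This rule took 631 of 37603 nuclei. The nuclei were chosen by the measured UMIs of these 13 genes, whose levels are therefore given as a description, with no test.

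Single-nucleus RNA sequencing covered flash-frozen hippocampus of 3 control TSs and 3 TSs with Alzheimer's-like pathology (ALP), with 1 library for each animal. All animals came from a naturally aged cohort of 5 to 6 years and carried no transgene. ALP TSs were those slow to complete a pipeline maze, and control TSs were those that completed it quickly. The labels call the groups AD and Normal, and neither they nor the methods give the sex of each library. The libraries held between 3011 and 8785 nuclei and between 19182981 and 35898940 UMIs.

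TSHZ2 encodes a zinc finger transcription factor of the teashirt family, and COL8A1 and COL21A1 encode collagen chains of the extracellular matrix. Pyramidal neurons release glutamate, which the transporters SLC17A7 and SLC17A6 load into synaptic vesicles. FIBCD1 is known as a marker of CA1 pyramidal neurons, while CUX2 on one side and BCL11B, FEZF2, ETV1 and FOXP2 on the other are transcription factors that distinguish projection neurons of the upper and the deep cortical layers.

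Control 3 stood apart from the other libraries. It gave 17 TSHZ2-set nuclei with 120295 UMIs in all, whereas control 1 gave 192 nuclei with 1045086 UMIs and control 2 gave 41 nuclei with 331769 UMIs. The ALP libraries gave 98 nuclei with 566158 UMIs, 220 nuclei with 1140435 UMIs and 63 nuclei with 302539 UMIs. The median depth of a TSHZ2-set nucleus lay between 4251 and 5847 UMIs in every library. Pairs of libraries shared between 4 and 18 barcodes, at most 0.465% of the smaller library, and no barcode of a TSHZ2-set nucleus. Doublets were scored and kept, and between 0 and 15 TSHZ2-set nuclei per library carried a doublet mark.

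The share of the set overlapped between the groups. In control 1 it made up 2.19% of all nuclei (exact Clopper-Pearson 95% interval 1.89% to 2.51%), in control 2 1.36% (0.979% to 1.84%) and in control 3 0.213% (0.124% to 0.341%). In ALP 1 it made up 1.92% (1.57% to 2.34%), in ALP 2 3.08% (2.69% to 3.50%) and in ALP 3 1.13% (0.866% to 1.44%). The intervals cover counting error only, and the libraries of the groups overlapped, with ALP 3 under control 1 and control 2. The mean was 1.25% ± 0.991 (SD, n = 3) in controls and 2.04% ± 0.981 (SD, n = 3) in ALP TSs, a difference of 0.789 percentage points that a two-sided exact permutation test did not separate from 0 (p = 0.5, where 0.1 is the smallest p that 3 against 3 libraries allow). Without control 3 the difference was 0.269 points, and without ALP 2 it was 0.272 points.

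**Figure D1:**
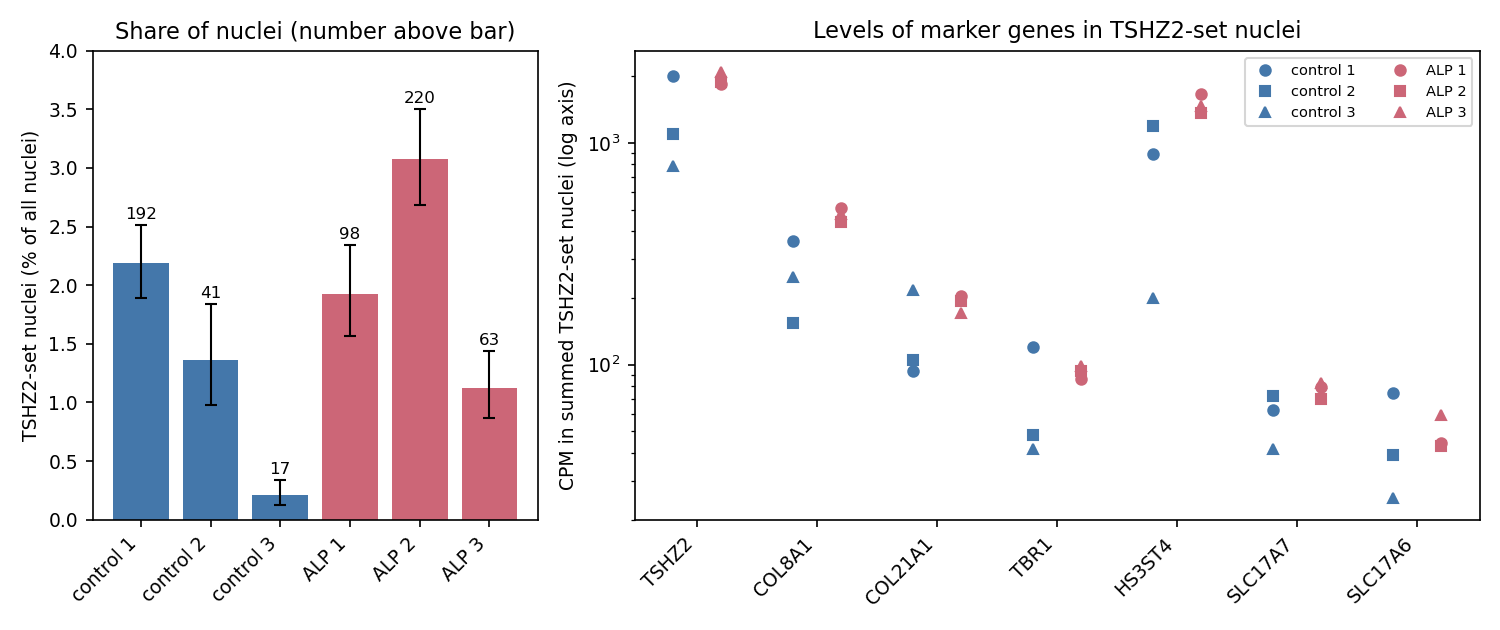
Left, share of all nuclei that belonged to the TSHZ2 set in each library (bars, with exact 95% binomial intervals and the number of nuclei). Right, level of 7 marker genes in the summed TSHZ2-set nuclei of each library, in CPM (UMIs of the gene per 1000000 UMIs of the summed nuclei, log axis), controls in blue and ALP in red. The shares overlap between groups, and control 3 is lowest for TSHZ2, TBR1, HS3ST4, SLC17A7 and SLC17A6.

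TSHZ2 was the gene by which most nuclei entered the set. A TSHZ2 UMI was present in 97.3% of the nuclei, a COL8A1 UMI in 41.4% and a COL21A1 UMI in 27.6%. In the 307 nuclei with FIBCD1, which the rule kept apart and whose median depth was 7436 to 10061 UMIs per library, these shares were 4.89%, 0.977% and 0%, and the 0 of 307 allows a share of up to 0.977%. TSHZ2 without either collagen was found in 358 nuclei (56.7%), TSHZ2 with both collagens in 160 (25.4%) and TSHZ2 with COL8A1 alone in 87 (13.8%). COL8A1 alone was found in 12 nuclei, TSHZ2 with COL21A1 in 9, COL21A1 alone in 3 and both collagens without TSHZ2 in 2. At least 1 collagen UMI was present in 30.7%, 36.6% and 41.2% of the nuclei of controls 1 to 3 and in 64.3%, 45% and 47.6% of those of ALP 1 to 3.

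As a level, TSHZ2 reached 1999, 1097 and 790 CPM in the summed nuclei of controls 1 to 3 and 1840, 1876 and 2089 CPM in ALP 1 to 3. COL8A1 reached 360, 154 and 249 CPM in controls and 509, 441 and 476 CPM in ALP TSs. COL21A1 reached 93.8, 105 and 216 CPM in controls and 203, 193 and 172 CPM in ALP TSs. COL8A1 was higher in each ALP library than in any control library, while TSHZ2 and COL21A1 overlapped between groups. Without the nuclei of sub-clusters 5 and 8, described further on and mostly from control 1, COL8A1 stood at 548, 158 and 179 CPM in controls and at 514, 451 and 486 CPM in ALP TSs, so that control 1 lay above every ALP library. Just inside the threshold, 57 nuclei had 4 UMIs of the 3 genes and a median depth of 5336 UMIs, and just outside it 64 nuclei had 3 UMIs and a median depth of 5456.5 UMIs.

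Markers of excitatory neurons were present in the set, but not in every nucleus. An SLC17A7 UMI was found in 191 of 631 nuclei (30.3%) and an SLC17A6 UMI in 153 (24.2%), while 331 (52.5%) had neither. SLC17A7, the main vesicular glutamate transporter of the forebrain, reached 68.1 ± 14.8 CPM (SD over 6 libraries), and CAMK2A, a kinase of excitatory synapses, reached 158 ± 21.4 CPM. In the 5232 other pyramidal-type nuclei, which met the same rule but had no UMI of the 3 genes, SLC17A7 reached 85.6 ± 24.2 CPM and CAMK2A 269 ± 55.5 CPM. SLC17A6, the transporter better known from subcortical and subicular neurons, reached 47.6 ± 17.3 CPM in TSHZ2-set nuclei against 5.76 ± 1.9 CPM in the other pyramidal-type nuclei and 8.12 ± 7.80 CPM in FIBCD1 nuclei. Its values in controls 1 to 3 were 74.6, 39.2 and 24.9 CPM, and those in ALP 1 to 3 were 44.2, 43.0 and 59.5 CPM. The lowest of these lay above the mean of either comparison set.

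HS3ST4, a sulfotransferase that modifies heparan sulfate chains, reached 890, 1188 and 200 CPM in controls 1 to 3 and 1659, 1369 and 1461 CPM in ALP 1 to 3. Control 3 was low with 24 UMIs. TBR1, a transcription factor of glutamatergic neurons and part of the rule, reached 120, 48.2 and 41.6 CPM in controls and 86.5, 93.8 and 99.2 CPM in ALP TSs, so that the groups overlapped. ETV1 reached 280 ± 85.3 CPM and BCL11B 150 ± 89.5 CPM, against 123 ± 51.5 and 132 ± 59.7 CPM in the other pyramidal-type nuclei. CUX2 reached 106 ± 78.2 CPM against 36.6 ± 13.6 CPM. Genes of deep and of upper cortical layers were present together in the summed nuclei. Of the sub-clusters described further on, sub-cluster 1 held both, with CUX2 at 70.1 CPM, ETV1 at 198 CPM and BCL11B at 111 CPM.

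Lists of regional markers were read as summed levels in the TSHZ2-set nuclei. The deep cortical layer list (10 genes, 9 in the files, 8 with a UMI, CCN2 at 0, ETV1 most abundant) summed to 555, 542 and 241 CPM in controls 1 to 3 and to 867, 733 and 611 CPM in ALP 1 to 3. Each value lay above that of the other pyramidal-type nuclei of the same library, which ranged from 169 CPM in control 3 to 385 CPM in ALP 2. FIBCD1 nuclei had the list at 522, 629 and 256 CPM in controls and at 404, 469 and 388 CPM in ALP TSs. They thus lay above the TSHZ2 set in controls 2 and 3 and below it in the other libraries. In the TSHZ2 set the list was lowest in control 3, and the ALP libraries lay above the controls. Without the nuclei of sub-clusters 5 and 8, however, control 1 stood at 823 CPM, above ALP 2 (753 CPM) and ALP 3 (622 CPM). The upper cortical layer list (6 genes, all with a UMI, RASGRF2 most abundant) summed to 266, 208 and 881 CPM in controls and to 127, 227 and 251 CPM in ALP TSs, with control 3 high. The subiculum list (6 genes, 4 with a UMI, NPSR1 and DLK1 at 0) consisted of ROBO1 to 91.2% and summed to 829, 1248 and 2693 CPM in controls and to 724, 626 and 446 CPM in ALP TSs, all of them below the controls. The CA1 list without FIBCD1 consisted of MAN1A1 to 80.7% and summed to 499, 521 and 407 CPM in controls and to 528, 666 and 565 CPM in ALP TSs, all of them above the controls, also without the nuclei of sub-clusters 5 and 8. The same order held in the other pyramidal-type nuclei, with 498, 496 and 553 CPM in controls and 739, 672 and 634 CPM in ALP TSs. It also held in FIBCD1 nuclei, where the list includes FIBCD1. The CA3 list (5 genes, IYD at 0, GRIK4 with 74.2% of the UMIs) summed to 175, 166 and 125 CPM in controls and to 97.1, 123 and 79.3 CPM in ALP TSs, again without overlap. CCN2, NPSR1 and IYD had no UMI in any nucleus of the series.

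Markers of glia were read in the same way. AQP4, PTPRC, MOG and PDGFRA are at 0 in these nuclei because the rule requires it, and C3 and MOBP had no UMI in any of the 37603 nuclei, so that these zeros say nothing about the set. The summed astrocyte list (6 genes, 4 with a UMI, AQP4 and GJA1 at 0) lay between 15.9 and 105 CPM per library, with SLC1A3 its most abundant gene, and the groups overlapped. The oligodendrocyte list (6 genes, 3 with a UMI, MBP, MOG and MOBP at 0, led by ST18) summed to 220, 157 and 183 CPM in controls and to 125, 87.7 and 46.3 CPM in ALP TSs. The list of oligodendrocyte precursor cells (6 genes, 5 with a UMI, PDGFRA at 0, PTPRZ1 with 72.5% of the UMIs) summed to 106, 136 and 291 CPM in controls and to 47.7, 50.9 and 49.6 CPM in ALP TSs. ST18 and PTPRZ1, which led the oligodendrocyte and precursor lists, were also leading genes of a sub-cluster of the set, sub-cluster 1 of those described after the gene comparisons. The microglia list (6 genes, 4 with a UMI, PTPRC and C3 at 0, led by P2RY12) summed to 18.2, 18.1 and 16.6 CPM in controls and to 5.30, 7.89 and 13.2 CPM in ALP TSs. These 3 lists were lower in every ALP library than in any control, also without the nuclei of sub-clusters 5 and 8, as were the subiculum and CA3 lists. The endothelial and mural list, between 8.31 and 91.9 CPM, and the choroid and ependymal list, between 9.92 and 72.7 CPM, overlapped between groups. In the other pyramidal-type nuclei the oligodendrocyte and microglia lists were lower in every ALP library too. The oligodendrocyte list stood there at 171, 132 and 188 CPM in controls and at 84.4, 113 and 125 CPM in ALP TSs. The microglia list stood at 15.3 CPM or more in controls and at 14.7 CPM or less in ALP TSs. The precursor, subiculum and CA3 lists overlapped there. The same held in FIBCD1 nuclei for which lists overlapped and which did not.

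The interneuron list (10 genes, 7 with a UMI, GAD1, GAD2 and SLC32A1 at 0) summed to 756, 552 and 2353 CPM in controls 1 to 3 and to 682, 513 and 49.6 CPM in ALP 1 to 3, with ERBB4 giving 65.4% of its UMIs. In the other pyramidal-type nuclei it lay higher in each library, between 1015 and 2501 CPM. The 0 of GAD1 is set by the rule, and GAD2 and SLC32A1 had no UMI in any nucleus of the series. The Cajal-Retzius list (5 genes, 2 with a UMI, LHX1, LHX5 and NDNF at 0) consisted of RELN to 98.7% and summed to 39.2, 205 and 673 CPM in controls and 44.2, 14.0 and 16.5 CPM in ALP TSs. Control 3 was the highest library for both lists.

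Within the set, the collagens divided the nuclei. The 273 nuclei with a COL8A1 or COL21A1 UMI had HS3ST4 at 1828 ± 913 CPM, and the 358 nuclei with TSHZ2 alone had it at 391 ± 214 CPM (SD over 6 libraries). The order held in 5 of 6 libraries, with control 3, where 7 nuclei had a collagen UMI and no HS3ST4 UMI, as the exception. ETV1 followed the same pattern with 406 ± 191 against 139 ± 76.8 CPM, as did BCL11B with 228 ± 148 against 64.1 ± 39.9 CPM, each in 5 of 6 libraries with control 3 reversed. FOXP2, a transcription factor of corticothalamic neurons, reached 62.8 ± 45.6 CPM in nuclei with collagen and 3.59 ± 3.72 CPM in those without, higher in 6 of 6 libraries.

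CUX2 took the opposite side. In the TSHZ2-alone nuclei it reached 145, 82.6 and 296 CPM in controls 1 to 3 and 90.7, 169 and 220 CPM in ALP 1 to 3. In nuclei with collagen it reached 12, 50.7 and 219 CPM in controls and 0, 3.45 and 5.86 CPM in ALP TSs. Control 3 was the highest library on both sides. On average CUX2 reached 167 ± 81.0 CPM in TSHZ2-alone nuclei and 48.5 ± 85.5 CPM in nuclei with collagen, lower with collagen in 6 of 6 libraries. SLC17A6 did not separate them alike in all libraries, at 50.5 ± 22.8 and 41.1 ± 21.4 CPM, higher with collagen in 3 of 6 libraries. In controls 1 to 3 it stood at 64.7, 29.0 and 16.8 CPM with collagen and at 81.2, 46.4 and 32.8 CPM with TSHZ2 alone. In ALP 1 to 3 it stood at 54.4, 62.1 and 76.2 CPM with collagen and at 25.2, 23.2 and 37.9 CPM with TSHZ2 alone. This difference between groups was not tested.

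Against the other pyramidal-type nuclei of the same library, 565 of 3392 features with at least 50 CPM on either side were higher in TSHZ2-set nuclei in all 6 libraries and 342 were lower in all 6. These comparisons are between nuclei that the rule separated and carry no test. GRM8, a metabotropic glutamate receptor of presynaptic terminals, averaged 521 CPM against 73.8 CPM, with a log2 ratio of 2.60 ± 0.55 (SD, 6 libraries, each with 10 CPM added) and 1.80 in the library where it was smallest. TOX, a nuclear factor, averaged 491 against 54.1 CPM with a log2 ratio of 2.79 ± 0.70. PID1, CHSY3, CNTN4 and TSHZ3 followed with mean log2 ratios of 1.80, 1.92, 1.91 and 1.94. CHSY3 is an enzyme of chondroitin sulfate synthesis, CNTN4 an adhesion molecule of the contactin family, and TSHZ3 a relative of TSHZ2 that the rule did not use.

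The other symbols of this group were ITGA8 (an integrin), HIVEP1, CDH6 (a cadherin), FNBP1L, KCNH5 (a potassium channel), PCDH15 (a protocadherin), NKAIN2, PRR16 and AMMECR1, with mean log2 ratios from 1.16 to 2.65. Lower in all 6 libraries were TMEM9B (80.1 against 306 CPM, log2 ratio -1.78 ± 0.23), LATS2, a kinase of the Hippo pathway (26.8 against 98.6 CPM), and TRHDE, an enzyme that degrades thyrotropin-releasing hormone (140 against 464 CPM). CHST8, MASP1, COL24A1, KSR1, CHRD, PKP2 and SEMA3E followed, with mean log2 ratios from -2.14 to -0.97.

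**Figure D2:**
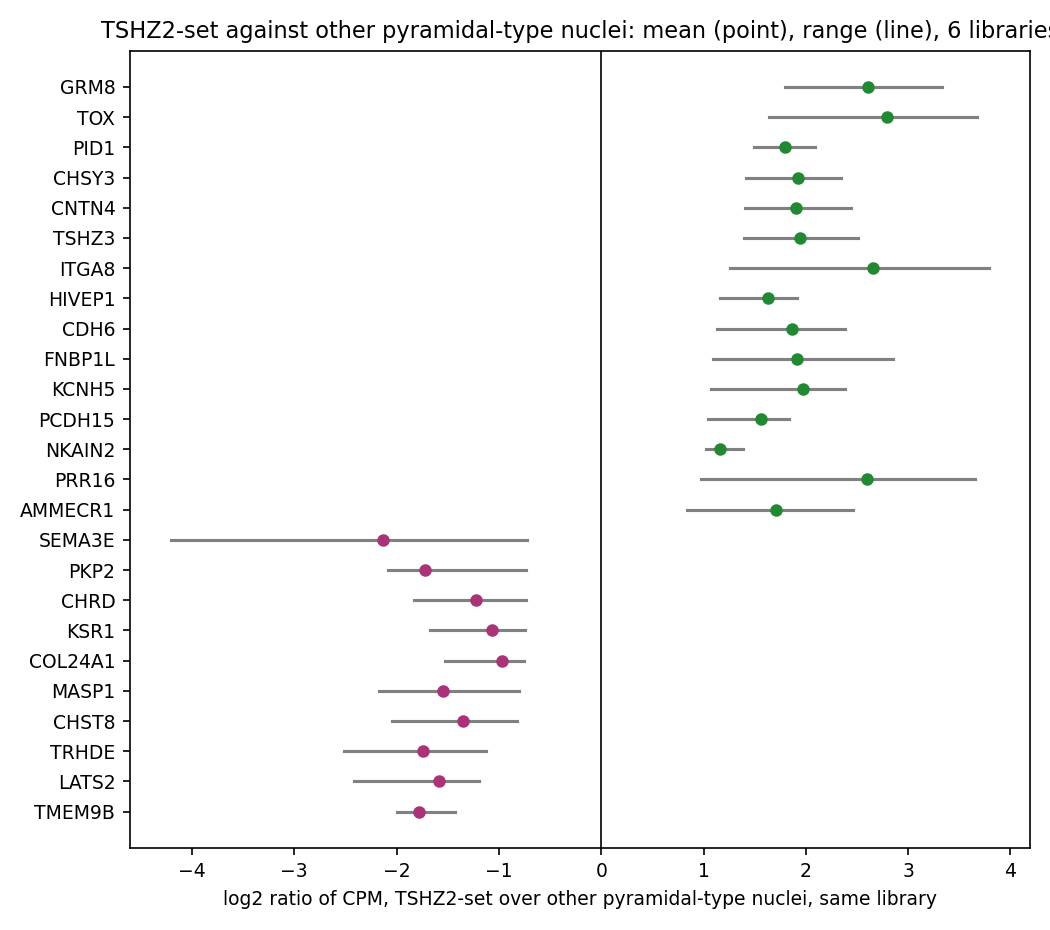
Log2 ratio of CPM (10 CPM added to each side) in TSHZ2-set over other pyramidal-type nuclei of the same library, for the 15 symbols highest and the 10 lowest by their least extreme library. Points are means and lines span the 6 libraries. GRM8 comes first by that library, with 1.80 in its lowest library, and TMEM9B lies below 0 in every library.

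Against FIBCD1 nuclei, 646 of 3477 features were higher in all 6 libraries and 435 were lower. OLFM3, a secreted olfactomedin, averaged 478 against 24.2 CPM, and PTPRT, a receptor tyrosine phosphatase, 504 against 40.4 CPM. TOX, GRM8, TSHZ3 and AMMECR1 were among the 15 highest here too. They were joined by the transcription factors MEF2C (582 against 65.7 CPM), KLF12 (354 against 47.1 CPM), ZFPM2 and ZNF385D, the phospholipase PLCB4, the synaptic adhesion molecule LRRTM4 (1955 against 369 CPM), the protease TLL1, and by FAM107B and FHOD3. On the lower side TMEM9B again came first by its least extreme library (80.1 against 389 CPM), and the others were IQGAP2 (46.7 against 268 CPM), COL24A1 (47.9 against 184 CPM), CCN6, ERVS71-1, SEMA3E, TBC1D1, PLXDC2, TRPC4 and PKP2.

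Clustering of the 631 nuclei without the genes of the rule gave 8 sub-clusters, which are described by number. Sub-clusters 2 (120 nuclei) and 4 (102 nuclei) held 83.1% of the UMIs of COL8A1 and COL21A1. Sub-cluster 2 had COL8A1 at 1021 CPM, COL21A1 at 423 CPM and HS3ST4 at 2585 CPM, and its leading genes included ZNF385D (2410 against 407 CPM in the remaining set) and GALNTL6 (4751 against 1157 CPM), a glycosyltransferase. Sub-cluster 4 had COL8A1 at 936 CPM and HS3ST4 at 2916 CPM with FOXP2 at 155 CPM and the serotonin receptor HTR2C at 268 CPM. CUX2 was at 8.17 CPM in sub-cluster 2 and had no UMI in sub-cluster 4.

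Sub-clusters 3 and 5 had TSHZ2 with little or no COL8A1 and COL21A1. Sub-cluster 3 (111 nuclei) had TSHZ2 at 2980 CPM, COL8A1 at 13.9 CPM and CUX2 at 312 CPM, and was led by the phospholipase family gene PLD5 (685 against 44.5 CPM). Sub-cluster 5 (93 nuclei) had no UMI of COL8A1 or COL21A1, COL19A1 at 296 against 54.3 CPM in the remaining set, CUX2 at 193 CPM and KCNIP4, a regulatory subunit of potassium channels, at 10004 against 1992 CPM. Of its 93 nuclei, 91 came from control 1. At resolutions of 0.25 and 1 in place of 0.5 the clustering gave 6 and 10 sub-clusters, and a cluster of 93 nuclei with 91 from control 1 was found each time.

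Sub-cluster 1 (143 nuclei) had the weakest TSHZ2 level of the 5 large sub-clusters, 1004 CPM, and was led by ZBTB20 (450 against 60.7 CPM), a transcription factor of hippocampal pyramidal neurons, and by ST18, PTPRZ1 and ZNF804B. Sub-cluster 6 (24 nuclei) was led by the heparan sulfate genes NDST4 and GPC5 and had ETV1 at 757 CPM. Sub-cluster 7 (20 nuclei) was led by CDH7 and the netrin receptor UNC5D, with RELN at 847 CPM. Sub-cluster 8 (18 nuclei) was led by NXPH1 (2346 against 37.3 CPM), MAF, ADARB2 (2259 against 81.6 CPM) and ERBB4 (4010 against 220 CPM), had SLC17A7 at 21.8 CPM and TBR1 at 5.46 CPM, and also held DLX2. The leading genes of these 18 nuclei went against the pyramidal label, since DLX2 is a transcription factor of interneurons.

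**Figure D3:**
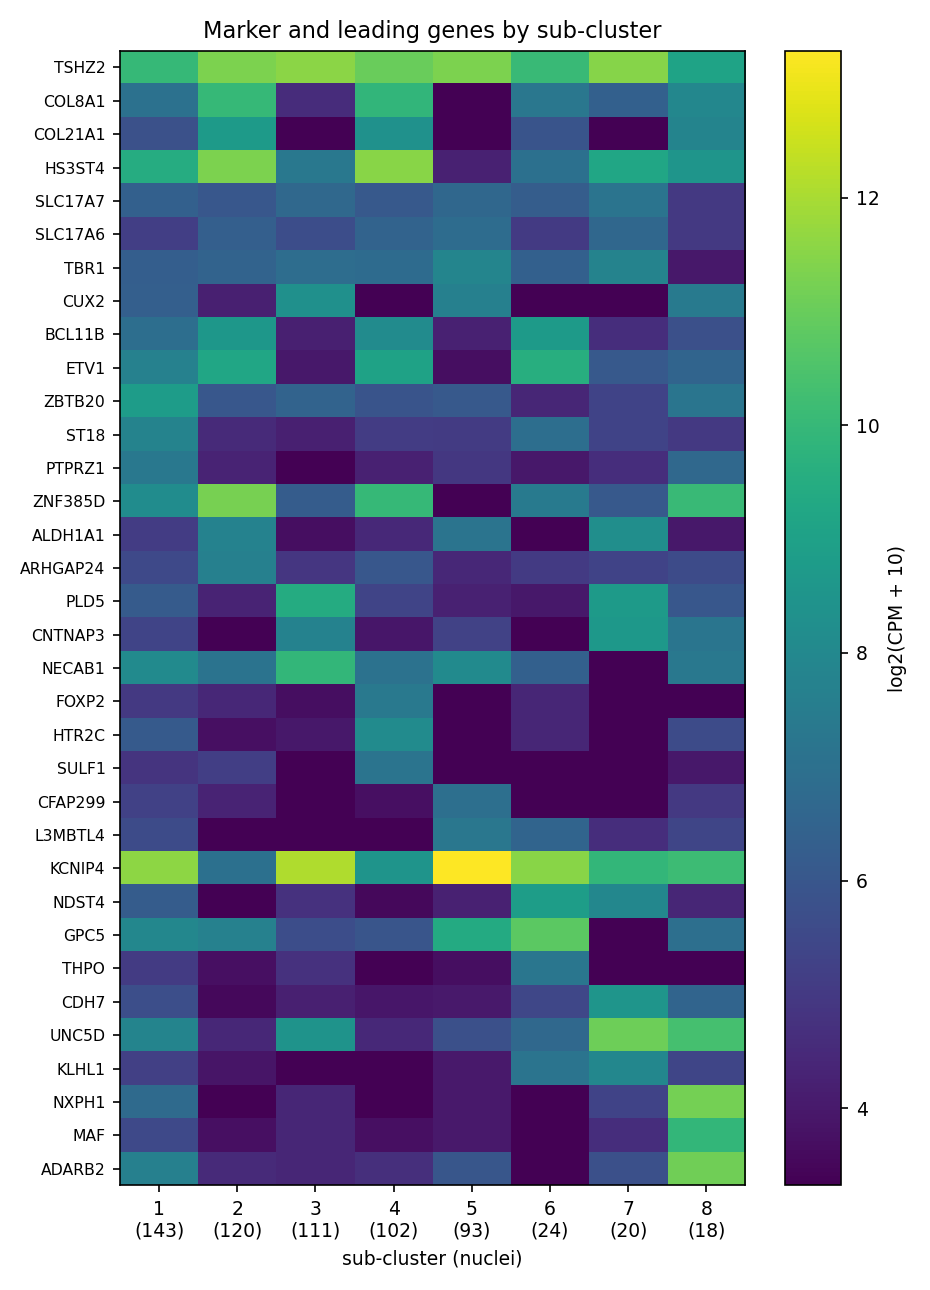
Level of marker and leading genes in each of 8 sub-clusters of the TSHZ2-set nuclei, as log2(CPM + 10) of the summed nuclei, with the number of nuclei under each column. COL8A1, COL21A1, HS3ST4, BCL11B and ETV1 are high together in sub-clusters 2 and 4 (BCL11B and ETV1 also in 6), CUX2 is highest in 3, and NXPH1, MAF and ADARB2 are high in 8.

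The sub-clusters were unevenly spread over the libraries. Sub-cluster 1 made up 22.4%, 46.3% and 52.9% of the TSHZ2-set nuclei of controls 1 to 3 and 16.3%, 19.5% and 20.6% of those of ALP 1 to 3. Sub-clusters 2 and 4 together made up 24.0%, 17.1% and 0% in controls and 59.2%, 37.7% and 44.4% in ALP TSs, where the 0 of 17 nuclei of control 3 allows up to 17.6%. Sub-cluster 2 alone made up 11.5%, 0% and 0% in controls and 38.8%, 15.9% and 39.7% in ALP TSs. Sub-cluster 4 alone made up 12.5%, 17.1% and 0% in controls and 20.4%, 21.8% and 4.76% in ALP TSs, with ALP 3 below controls 1 and 2. The sub-clusters were formed on the genes of these nuclei and the shares carry no test. Of the nuclei outside sub-cluster 5, a denominator chosen after the data were seen, sub-clusters 2 and 4 together made up 45.5%, 17.1% and 0% in controls and 59.2%, 37.7% and 45.2% in ALP TSs, so that control 1 then lay above ALP 2 and ALP 3. Of all nuclei of the library they made up 0.524%, 0.232% and 0% in controls and 1.14%, 1.16% and 0.500% in ALP TSs, with control 1 above ALP 3. Sub-cluster 1 made up 42.6%, 46.3% and 56.2% in controls and 16.3%, 19.5% and 21.0% in ALP TSs outside sub-cluster 5, without overlap, but overlapped as a share of all nuclei, with 0.113% in control 3 and 0.631% in control 2. Sub-cluster 3 made up 0%, 22.0% and 5.88% in controls and 13.3%, 30.9% and 31.7% in ALP TSs, with control 2 above ALP 1. Sub-cluster 8 made up 35.3% of control 3, 6 of 17 nuclei, and at most 2.44% of any other library.

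**Figure D4:**
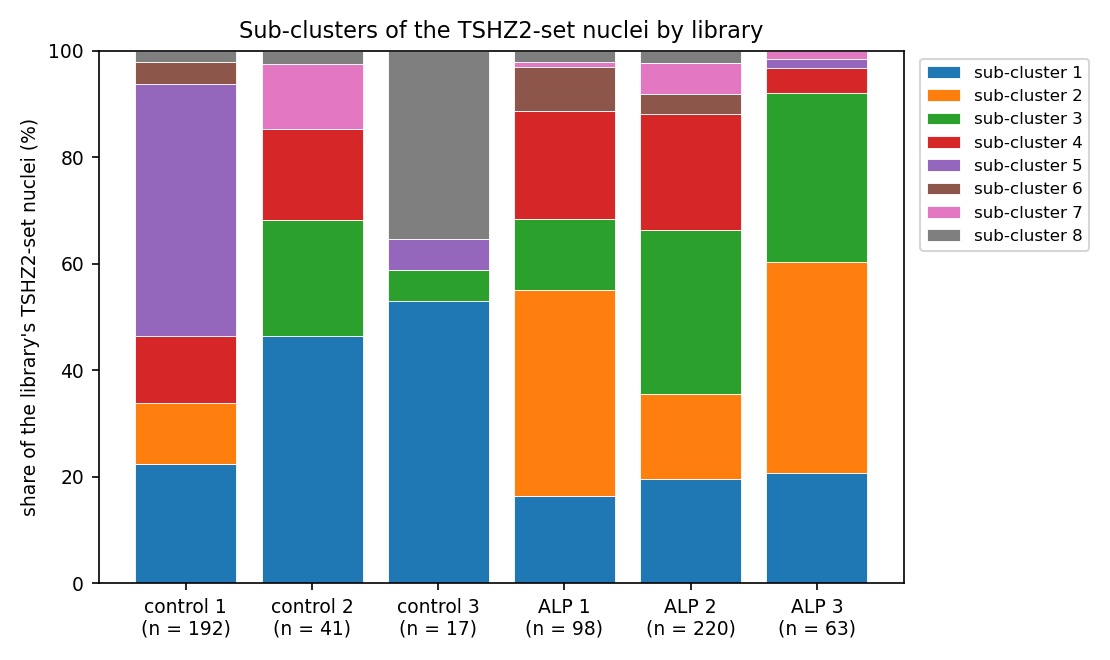
Share of each sub-cluster among the TSHZ2-set nuclei of each library, with the number of nuclei per library. Sub-cluster 5 is found nearly only in control 1 (91 of 93 nuclei), sub-cluster 8 is large only in control 3, and sub-clusters 2 and 4 together take a larger share in the 3 ALP libraries, which for ALP 2 and ALP 3 does not hold against control 1 once sub-cluster 5 is left out of the total.

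For the comparison of ALP with control TSs, UMIs were summed over the TSHZ2-set nuclei of each library. EdgeR's quasi-likelihood test called 0 of 6207 genes (0%) at an adjusted p under 0.05 and a log2 fold change beyond 0.25, and the smallest adjusted p was 0.0598. At an unadjusted p under 0.05 there were 773 genes, 347 higher in ALP TSs (5.59% of those tested) and 426 lower (6.86%). The groups did not overlap for 689 genes that were higher (11.1%) and 629 that were lower (10.1%), 1318 in all (21.2%). DESeq2 called 48 genes, and edgeR without control 1 called 156 of 5321, without a filter on low counts 170 of 33645, and with the study's limits on nuclei (at most 2500 genes and 5% mitochondrial UMIs, which left control 3 with 8 nuclei and out of the fit) 47 of 5118.

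The genes in the following paragraphs are those with the smallest unadjusted p among symbols without overlap, and their values are not called changes. CCBE1, a secreted factor of lymphatic growth, stood at 3.97, 3.27 and 9.05 CPM in controls 1 to 3 (scaled with TMM factors, as are the CPM that follow) and at 47.4, 49.6 and 79.2 CPM in ALP 1 to 3. All ALP libraries lay far above the controls, of which controls 2 and 3 held 1 UMI each. The log2 fold change was 3.65 (SE 0.48, edgeR adjusted p = 0.0598), and 43.0% of its UMIs were in sub-cluster 3.

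GRM8, which also distinguished the set from other nuclei, stood at 448, 385 and 281 CPM in controls and at 876, 755 and 776 CPM in ALP TSs, with a log2 fold change of 1.08 (SE 0.22, adjusted p = 0.128). RAB26, a small GTPase of vesicle traffic, stood at 235, 248 and 72.4 CPM in controls and at 1034, 503 and 780 CPM in ALP TSs (log2 1.95, SE 0.39, adjusted p = 0.120). Control 3 was the lowest library for both genes. Other symbols higher in ALP TSs were TSTA3, EGFL7, PPP1R2, QSOX2, PRPF4B and GRHL2, with log2 fold changes from 0.86 to 2.37 and adjusted p from 0.135 to 0.162.

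Among the symbols lower in ALP TSs, EDIL3, an integrin ligand of the extracellular matrix, came nearest to a call. It stood at 337, 255 and 253 CPM in controls and at 74.2, 99.1 and 47.5 CPM in ALP TSs, with a log2 fold change of -1.88 (SE 0.27, adjusted p = 0.0758). Its control values lay close together and far above every ALP value. SLC6A4, the serotonin transporter, stood at 88.4, 81.6 and 109 CPM against 28.8, 29.2 and 15.8 CPM (log2 -1.77, adjusted p = 0.0931). HTR2A, a serotonin receptor, stood at 63.6, 65.3 and 118 CPM against 12.4, 20.4 and 11.9 CPM (log2 -2.17, adjusted p = 0.0931). The controls lay above the ALP libraries for both, as the choice of the symbols requires.

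ALCAM, an immunoglobulin adhesion molecule, stood at 203, 265 and 290 CPM in controls and at 107, 72.9 and 43.6 CPM in ALP TSs (log2 -1.67, adjusted p = 0.102). ZNF804B stood at 161, 467 and 679 CPM against 72.1, 73.9 and 91.1 CPM (log2 -2.40, adjusted p = 0.120), and 77.4% of its UMIs were in sub-cluster 1. Its log2 fold change ran from -2.85 to -0.77 over 15 alternatives. SLC14A2, L3MBTL4, SCN9A (a sodium channel), COL19A1 (a collagen) and DENND2A completed the list, with log2 fold changes from -2.47 to -1.35 and adjusted p from 0.107 to 0.153. EDIL3 and CCBE1 were called under 6 of 15 alternatives each, and ALCAM, HTR2A and RAB26 under 4 each.

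**Figure D5:**
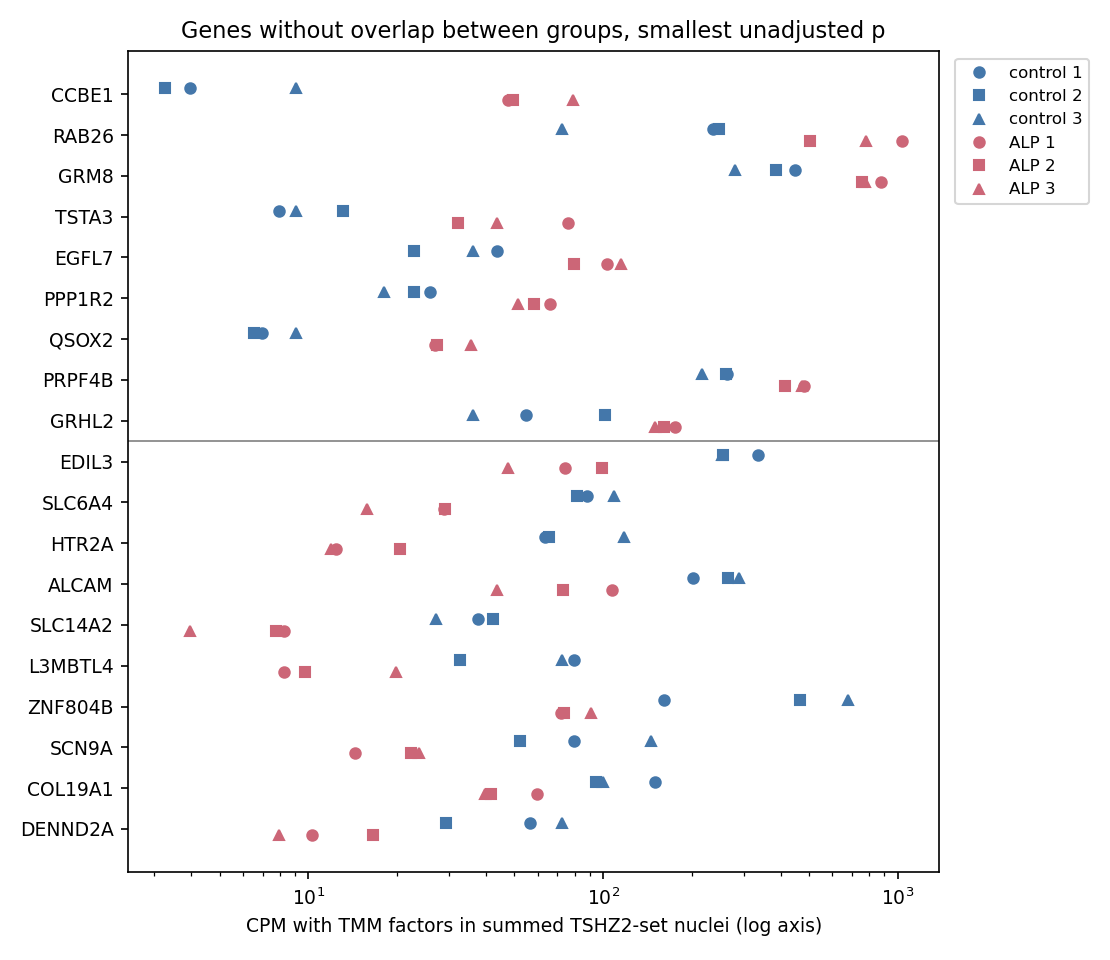
CPM (with TMM factors, log axis) in each library for 9 symbols higher and 10 lower in ALP among those with the smallest unadjusted p whose groups do not overlap, controls in blue and ALP in red. No gene passed the adjusted threshold, and the gap between groups is widest for CCBE1.

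The spread of the sub-clusters moved with these genes, and its part in the differences was tested only by leaving nuclei out. The summed oligodendrocyte, precursor, microglia, subiculum and CA3 lists, lower in ALP TSs, and the CA1 list, higher there, moved with them too, and their part was not tested. Without sub-clusters 5 and 8, in CPM without TMM factors, 9 of the 10 symbols higher in ALP TSs and 9 of the 10 lower ones still did not overlap between groups, with COL19A1 as the exception among the lower ones. EDIL3 then stood at 182, 233 and 268 CPM in controls and at 65.4, 77.9 and 40.5 CPM in ALP TSs. The log2 ratio of the group means was then 1.58 for CCBE1, 1.14 for TSTA3, -0.89 for SCN9A and -1.27 for SLC14A2. With sub-clusters 5 and 8 kept, their log2 fold changes were 3.65, 2.37, -2.03 and -2.34. For EDIL3 the values were -1.74 and -1.88. The difference grew for ZNF804B, from -2.40 to -3.29, and for ALCAM, from -1.67 to -1.91. Inside sub-cluster 1 alone, 4 of the 10 higher symbols (RAB26, EGFL7, QSOX2 and PRPF4B) and 8 of the 10 lower ones did not overlap. There EDIL3 stood at 335, 295 and 281 CPM in controls and at 175, 186 and 69.8 CPM in ALP TSs, while GRM8 stood at 246, 209 and 141 CPM against 188, 243 and 349 CPM and overlapped, as did CCBE1. These genes were chosen for the absence of overlap in the same nuclei, so that the counts describe them and support nothing.

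Gene lists were followed beside a median log2 fold change of -0.000782 over all 6207 genes tested. The 2 values in parentheses after a list's median are its lowest and highest with 1 library left out. No list member was called, and members named for an unadjusted p under 0.05 were named after their values were seen, with 5.59% of all genes tested higher and 6.86% lower at that level. Of 37 list members outside the rule at that level whose groups did not overlap, 15 overlapped without the nuclei of sub-clusters 5 and 8, among them DCC, GRM3, KCNH5, TENM4, CDH20, COL19A1, COL24A1, HS6ST3, BCL11B, ETV1, LMO3, ADAM10 and NDUFB10. Of 17 genes of ionotropic receptors, 12 were tested and 0 called, 7 had an unadjusted p under 0.05 and were lower in ALP TSs, and the median was -0.62. GRIK2, a kainate receptor subunit, stood at 1116, 1643 and 2145 CPM in controls and 1160, 1101 and 836 CPM in ALP TSs. Control 3 was the highest library and ALP 3 the lowest, and the groups overlapped. The NMDA receptor genes GRIN2B and GRIN2A had log2 fold changes of -0.09 and -0.15 and overlapped. GRIK2 was among the 7, as were GRIA1, GRIA3, GRIA4, GRIK4 and GRIK5. Control 3 was the highest library for GRIA1 with 2372 CPM, where no other library exceeded 575 CPM, and the median of the list was -0.41 without control 3 and -0.08 with the study's limits on nuclei. Without sub-clusters 5 and 8 the log2 ratio of the group means, with 10 CPM added to each mean, was -0.02 for GRIA4 and -0.65 for GRIA1. Their edgeR log2 fold changes with these nuclei kept, which lack that addition, were -0.74 and -1.84. Both genes overlapped between groups.

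Of 7 metabotropic receptor genes, 6 were tested, with a median of 0.58 (0.32 without control 2, 0.93 without control 1) and 2 genes, GRM8 and GRM3, higher at an unadjusted p under 0.05. GRM7, the most abundant, stood at 2933, 2103 and 1901 CPM in controls and at 3318, 2667 and 3213 CPM in ALP TSs, and GRM5 differed by -0.19 on the log2 scale. Postsynaptic density genes (15 tested) had a median of -0.12 (-0.16 without control 1, -0.06 without ALP 3) and 1 gene lower at that level, DLGAP4, while DLG2 and DLGAP2 had log2 fold changes of -0.27 and -0.01. GABA receptor genes (13 tested) had a median of -0.03 (-0.08 without ALP 2, 0.20 without control 2) and none at that level, and GPHN, the scaffold of inhibitory synapses, had a log2 fold change of -0.24. Genes of vesicle release (18 tested) had a median of 0.06 (-0.03 without control 2, 0.16 without control 1), with 2 higher and 1 lower, SYT4, SV2B and BSN in that order, whereas the abundant SYT1 stood between 3713 and 4243 CPM in all 6 libraries.

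Among ion channels, 16 genes of sodium and calcium channels had a median of 0.10 (-0.28 without control 1, 0.17 without control 2) with 1 gene lower, CACNA1A. The median was also below 0 without ALP 1, at -0.13, and with the study's limits on nuclei, at -0.05. A further 19 genes of potassium and HCN channels had a median of -0.16 (-0.15 without ALP 3, 0.06 without control 1), which was also above 0 without ALP 1, at 0.04, with 1 higher, KCNH5, and 2 lower, KCNC2 and DPP10. KCNC2, a fast delayed rectifier, stood at 497, 379 and 1349 CPM in controls and at 204, 246 and 194 CPM in ALP TSs. KCNIP4 stood at 5070 CPM in control 1 and between 1624 and 2405 CPM in the other libraries, and its level was highest in sub-cluster 5. Teneurins, latrophilins and their partners (15 tested) had a median of -0.11 (-0.42 without control 1, 0.04 without control 2) and 4 lower, TENM2, TENM3, TENM4 and FLRT2. Of these, TENM2, TENM3 and FLRT2 overlapped between groups. TENM3 stood at 407, 738 and 2435 CPM in controls and at 482, 586 and 238 CPM in ALP TSs. Its log2 fold change of -1.39 ran from -1.81 to 0.05 over the alternatives. For NRXN3, a neurexin, control 3 reached 7305 CPM and no other library more than 1873 CPM.

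Axon guidance genes (28 tested) had a median of -0.21 (-0.49 without control 1, -0.02 without control 3), with 2 higher and 5 lower. ROBO2, a receptor for SLIT proteins, stood at 3537, 2763 and 3494 CPM in controls and at 1480, 2043 and 1517 CPM in ALP TSs (log2 -0.96, adjusted p = 0.162), and ROBO1 had a log2 fold change of -1.39 with 2879 CPM in control 3. DCC, a netrin receptor, stood at 974.5, 885 and 932 against 1653, 1090 and 1696 CPM (log2 0.67, adjusted p = 0.299). ROBO2 and DCC did not overlap and differed in direction, but without sub-clusters 5 and 8 DCC stood at 1283, 840 and 1208 CPM in controls and at 1434, 1004 and 1405 CPM in ALP TSs and overlapped, while ROBO2 did not. Cadherins (15 tested, median -0.09) had 1 higher, PCDH10, and 5 lower, among them CDH20 and CDH10, while the abundant PCDH9 differed by 0.25 on the log2 scale. The median of the cadherins was -0.53 without control 1, 0.21 without control 2 and 0.15 without control 3.

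In the extracellular matrix, 7 collagens outside the rule were tested with a median of -0.02, with COL24A1 higher and COL19A1 lower at an unadjusted p under 0.05, and the median was -0.69 without control 1, 0.59 without control 2 and 0.26 without control 3. Of the enzymes and proteoglycans of heparan sulfate (13 tested), with a median of -0.19 (-0.20 without control 3, 0.12 without control 2), HS3ST4 was higher with 924, 1287 and 217 CPM in controls and 1935, 1517 and 1751 CPM in ALP TSs (log2 1.06, adjusted p = 0.381), and HS6ST3 and GPC6 were lower. GPC6 overlapped between groups, with 1448 CPM in control 3 and 447 CPM or less in each other library. Its log2 fold change of -1.35 ran from -1.80 to -0.01 over the alternatives. HS3ST4 marks sub-clusters 2 and 4, whose combined share of the set was larger in ALP libraries. Transcription factors (29 tested) had a median of 0.13 (-0.01 without ALP 2, 0.20 without ALP 3), with 3 higher, BCL11B, ETV1 and LMO3, and 3 lower, ZBTB20, NFIB and NPAS3. BCL11B, at 164, 84.9 and 9.05 CPM in controls and 276, 212 and 269 CPM in ALP TSs, had 37.9% of its UMIs in sub-cluster 2, which held 17.5% of all UMIs of the set, and ZBTB20 had 79.1% of its UMIs in sub-cluster 1, which held 33.8%.

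The next lists follow Alzheimer's disease and cell state. Amyloid and tau genes (10 tested) had a median of -0.03 (-0.04 without ALP 2, 0.26 without control 2), with 2 higher, the secretase ADAM10 and the kinase CDK5. APP, the amyloid precursor, stood at 461, 702 and 570 CPM in controls and 544, 572 and 566.5 CPM in ALP TSs, and MAPT, which encodes tau, at 344, 500 and 416 against 445, 415 and 471 CPM, both with overlap. Oxidative phosphorylation genes (13 tested) had a median of 0.24 (0.15 without control 2, 0.38 without ALP 2) and 2 higher, NDUFB10 and COX4I1. Ribosomal protein genes (6 tested) had a median of 0.32 (0.04 without control 2, 1.15 without control 1) and 1 higher, RPL13. The median of the immediate-early genes (5 tested, none at that level) was -0.09 but lay above 0 whenever 1 library was left out (0.14 without control 3, 0.60 without control 2). That of the heat shock genes (5 tested, none at that level) was -0.52 (-0.87 without ALP 2, -0.15 without control 1). Of neuropeptides and their receptors 2 were tested, CCK and NXPH1, with a median of -1.75 (-2.62 without ALP 2, -0.46 without control 2). NXPH1 was lower at an unadjusted p under 0.05, but it reached 2661 CPM in control 3, 193 CPM or less in each other library, and had 77.6% of its UMIs in sub-cluster 8. Of the 5 glutamatergic genes that the study singled out on these samples, which is no independent evidence, 4 were tested and none had an unadjusted p under 0.05, with a median of -0.17 (-0.22 without ALP 1, -0.08 without control 3).

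Whether the ALP difference itself differed between kinds of nuclei was tested within libraries. Against FIBCD1 nuclei, edgeR called 0 of 7363 genes (0%), with 461 at an unadjusted p under 0.05, and DESeq2 called 1. Against the other pyramidal-type nuclei, a comparison added after the data were seen, it called 23 of 16800 genes (0.137%), 16 with a more positive ALP difference in TSHZ2-set nuclei and 7 with a more negative one. DESeq2 kept 4 of the 23, TSORFli266, ZNF385D, EDIL3 and HTR2A-AS-1, gave 18 an adjusted p from 0.0561 to 0.327 and gave CCBE1 none. In their own tests, FIBCD1 nuclei had 2 of 5807 genes called (0.0344%) and other pyramidal-type nuclei 2 of 18455 (0.0108%).

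CCBE1 had the largest difference of log2 fold changes, 4.37 (SE 0.67, adjusted p = 0.00175). In the other pyramidal-type nuclei it stood, in CPM without TMM factors, at 7.24, 3.53 and 3.33 in controls and at 2.96, 3.07 and 4.2 in ALP TSs, so that the groups overlapped there. ZNF385D, a zinc finger gene, stood at 551, 301 and 574 CPM in the TSHZ2-set nuclei of controls and at 1164, 760 and 1259 CPM in those of ALP TSs, but at 328, 352 and 251 against 208, 213 and 195 CPM in the other nuclei, a difference of 1.83 (SE 0.28, adjusted p = 0.00175). GALNTL6 (1.95, adjusted p = 0.0112) and FBN2, a fibrillin of the matrix (2.04, adjusted p = 0.0321), also had a more positive difference, but neither kept its call with DESeq2 (adjusted p = 0.0561 and 0.135). GALNTL6 overlapped between the groups of TSHZ2-set nuclei, with 1928 CPM in control 1 and 1626 CPM in ALP 2. ZNF385D, GALNTL6 and FBN2 had more of their TSHZ2-set UMIs in sub-cluster 2 than in any other sub-cluster, as had 4.32% of the 6207 genes tested between ALP and control, and CCBE1 had more in sub-cluster 3.

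The more negative side held ZNF804B (-2.10, adjusted p = 0.00610), EDIL3 (-1.60, adjusted p = 0.0159), CDH10 (-1.47, adjusted p = 0.0321) and KCNC2 (-1.36, adjusted p = 0.0292), of which EDIL3 kept its call with DESeq2. EDIL3 stood at 206, 222 and 289 CPM in the other pyramidal-type nuclei of controls and at 168, 206 and 166 CPM in those of ALP TSs, so that control 1 and ALP 2 stood at the same rounded value. All 7 genes of this side had more of their TSHZ2-set UMIs in sub-cluster 1 than in any other sub-cluster, as had 91.1% of the 6207 genes tested between ALP and control, and sub-cluster 1 held 33.8% of all UMIs of the set. The sub-clusters and the groups moved together, so that a change within nuclei and a change in the makeup of the set cannot be told apart from the sums. Antisense-named features among the 23, such as PGR-AS-1 and HTR2A-AS-1, are uncertain because the use of strand in counting is not stated.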

How the data were processed

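Nuclei of 6 hippocampal libraries (3 control, 3 ALP, 1 animal each) were profiled by droplet 3′ sequencing. The authors deposited raw UMI counts per feature and barcode, 1 matrix per library. The submitters' notes name Cell Ranger 3.1.0 and the matrix headers 6.1.2, while genome build and use of strand are not given in the sources used here. The 83605 features include 22595 named as antisense, 31776 as intergenic and 10457 as numbered copies.

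The members and gene lists were chosen with earlier results of these data known. UMIs of the chosen nuclei were summed per library, genes were filtered by edgeR's filterByExpr (minimum count 10), scaled with TMM factors and tested with edgeR's quasi-likelihood test (edgeR 4.0.16, R 4.3.3), with Benjamini-Hochberg adjustment over all genes tested. A gene was called at an adjusted p under 0.05 and a log2 fold change beyond 0.25. Sums needed at least 10 nuclei. Differences between kinds of nuclei were tested as an interaction within libraries. Shares were compared by exact permutation of the 20 arrangements of 6 libraries. With 3 libraries per group, p-values measure the spread between these libraries. On simulated counts, the comparison of ALP with control recovered 11.5% of changes of 1 and 81.7% of changes of 2 on the log2 scale among 5762 genes, with 3 false calls, and the interaction with FIBCD1 nuclei 0% and 12.6% among 5983 genes, with 2 false calls. The simulation gave every gene the same fixed dispersion and held no sub-clusters and no outlying library. The measured libraries differ in both, so that these percentages need not hold for them, and genes not called may still differ.

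Nuclei were clustered by Leiden (scanpy 1.11.5, leidenalg 0.10.2, 2000 variable genes, 20 components, 15 neighbours, resolution 0.5). Doublets were scored by simulating pairs of nuclei, 2 per barcode. Named genes were the 10 symbols per direction with the smallest unadjusted p and no overlap between groups, as fewer than 10 genes were called, up to 4 most abundant members of each list, and the 15 highest and 10 lowest symbols against other nuclei. Alternatives were DESeq2 1.42.0, upper-quartile scaling, no filter, a replicate block, antisense features removed, each library left out, the study's limits on nuclei, doublets removed, and thresholds of 3 and 6 UMIs. The comparison with other pyramidal-type nuclei, the other resolutions, the values without sub-clusters 5 and 8 and the shares outside sub-cluster 5 or of all nuclei were added after the data were seen. Some genes that these rules name are not reported here.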

Additional observations from a re-analysis of the deposited data

Results flagged for a closer look

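For 23 features the ALP difference in TSHZ2-set nuclei differed from that in the other pyramidal-type nuclei of the same libraries, by edgeR's interaction test at adjusted p from 0.00175 to 0.0426. DESeq2 kept 4 of these calls, TSORFli266, ZNF385D, EDIL3 and HTR2A-AS-1, lost 18 and gave CCBE1 no adjusted p. Each value is the log2 fold change of ALP over control in TSHZ2-set nuclei minus that in the other nuclei. More positive in the TSHZ2 set were the symbols CCBE1 (4.37), FBN2 (2.04), GALNTL6 (1.95), ZNF385D (1.83), GULP1 (1.81), TLL1 (1.73), GARNL3 (1.54), CRACD (1.475), CACHD1 (1.43) and WWP1 (1.31). The same held for the numbered copies TSORFli266 (2.20), TSORFli2311 (1.98) and GRIK1li1 (1.58) and the antisense-named features PGR-AS-1 (2.51), RPL21-AS-5 (2.38) and ZNF385D-AS-2 (2.35). More negative were ZNF804B (-2.10), EDIL3 (-1.60), CDH10 (-1.47) and KCNC2 (-1.36), and the antisense-named HTR2A-AS-1 (-1.91), UBE2E1-AS-3 (-1.54) and C6ORF167-AS-2 (-1.35). Copies may share reads with their parent genes.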

How the results depend on the processing

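The difference in the share of TSHZ2-set nuclei kept its sign in 13 alternatives, in which 3 libraries or fewer per group allow no p under 0.05, with 0.269 to 1.25 percentage points when 1 library was left out. The 0 genes called between ALP and control became 48 with DESeq2, 170 without a filter on low counts, 47 with the study's limits on nuclei, 3 with doublets removed and 3 at a threshold of 6 UMIs. Leaving out 1 library gave 0 to 156, where the 156 came without control 1, the library that holds sub-cluster 5. The interaction with FIBCD1 nuclei, 0 genes, became 1 with DESeq2, 37 without a filter, 3 at a threshold of 6 UMIs and 0 to 73 with 1 library left out (73 without control 1, 7 without control 2), and 23 with the other pyramidal-type nuclei as the comparison. The study's limits left too few FIBCD1 nuclei for a fit. The 23 became 4 with DESeq2, 65 without a filter and 28 to 221 with 1 library left out (221 without control 1), and between 15 and 23 of them were kept in each of these but DESeq2, which kept 4, lost 18 and gave 1 no adjusted p. The cause of these shifts was not tested. None of the 20 symbols named for their smallest p or of the 23 interaction genes reversed its sign in any alternative. Of 113 list members, the 4 most abundant of each list and those at an unadjusted p under 0.05, 30 had alternatives of both signs. Of 315 list medians, 58 moved by more than 1 SD between libraries.

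With the replicate number as a block, 0 genes were called between ALP and control, 9 in the interaction with FIBCD1 nuclei and 105 in that with other pyramidal-type nuclei. The numbers did not pair the libraries: same-numbered deviations correlated at 0.0273, 0.0415 and -0.0427, and not every library correlated best with its own number.

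Control 3, with 17 nuclei and 120295 UMIs, limits what the sums can show for genes of low level.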

Other observations

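DDX3Y, a gene of the Y chromosome in other mammals, had 1294, 777 and 7 UMIs in all nuclei of controls 1 to 3 and 1, 1425 and 1 UMIs in those of ALP 1 to 3. In TSHZ2-set nuclei it had 37, 12 and 0 UMIs in controls and 0, 46 and 1 UMIs in ALP TSs. The libraries of each group were thus unlike in this gene, with 2 of 3 controls and 1 of 3 ALP libraries high, and its part in the differences between groups was not tested.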
